A study of Mus musculus with 5 samples.

Results

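Genes of the B cell receptor and of B lineage identity were measured in leukocytes from mouse lung. The genes were named in advance of this account, with earlier results of these data known, as Cd79a, Cd79b, Ms4a1, Cr2, Blk, Btk, Blnk, Ebf1 and Pax5. All 9 had 1 row each among the 14462 rows of the deposited table, and all 9 passed a filter on low values that kept 12777 rows. The mice bore MC38/MC38 tumors, as the labels put it, and MC38 is a mouse line of colon adenocarcinoma cells. Lungs were taken 3 days after tumour irradiation, and cells were sorted for CD45, a surface protein of nearly all leukocytes. The labels give 2 libraries from the irradiated group (IR) and 3 from the control group (ctrl). No label used here gives strain, age, radiation dose or batch. Nor does any label tie the libraries to separate animals, so p-values cover the spread between these libraries alone, and that spread may be technical.

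The receptor of a B cell is a membrane immunoglobulin that signals through a pair of partner chains, CD79A and CD79B. Src-family kinases phosphorylate the cytoplasmic tails of these chains, and the adaptor BLNK then brings the kinase BTK to its substrate, phospholipase C gamma. EBF1 and PAX5 are the transcription factors that specify the B lineage and hold it, and the genes of CD79A, CD79B and BLNK are among their known targets. The lung holds B cells in its vessels, in its tissue and in lymphoid aggregates.

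The authors deposited gene read counts after scaling the libraries to each other. Totals were 7544034 and 8414753 in the IR libraries, against 7232126 to 7425923 in the ctrl libraries, or roughly 8010000 to 10170000 reads per library from the smallest step between values. Ptprc, the gene of CD45, was at 17369 and 27247 in IR and at 15543 to 15842 in ctrl. Epithelial markers, which the sort should remove, were present. Their 10 genes summed to 117150 and 56688 in IR, against 22724 to 26695 in ctrl, and most of that sum was the club cell gene Scgb1a1 (103972 and 50989 in IR, against 18790 to 23115 in ctrl). Of the 10, 2 rose (Scgb1a1 and Scgb3a2) and 8 did not pass, 3 of them with negative fold changes. Epcam, the pan-epithelial marker, had 45.8 and 74.8 in IR, against 133.4 to 185.1 in ctrl (log2 fold change -1.45; adjusted p = 0.161 in limma). Over the genes tested, the IR libraries differed by a median absolute log2 difference of 0.600, and pairs of ctrl libraries by 0.383 to 0.508. Between groups, IR replicate 1 differed from the ctrl libraries by 0.45 to 0.584, less than from IR replicate 2. IR replicate 2 differed from them by 0.633 to 0.717. The libraries thus did not separate by group on this measure.

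RefSeq promoter windows on GRCm38.p6, from 250 bases before to 50 after each start, were matched for 6 of the genes (7 windows, as Ebf1 has 2 starts). They are shown for Ebf1, the gene that passed the limma test below, and for Cd79a and Blnk, a receptor chain and an adaptor with lower means in IR. The windows of Blnk and Ebf1 lie inside the GENCODE gene bounds given below, so their RefSeq starts differ from the outermost GENCODE starts. Capitals mark the E box CAGGTG or its reverse complement CACCTG, a motif read by the E proteins, and the octamer ATTTGCAT, read by the factors OCT1 and OCT2. Both strands were searched, and the motifs did not overlap.
Cd79a, chr7:24897247-24897546, plus strand: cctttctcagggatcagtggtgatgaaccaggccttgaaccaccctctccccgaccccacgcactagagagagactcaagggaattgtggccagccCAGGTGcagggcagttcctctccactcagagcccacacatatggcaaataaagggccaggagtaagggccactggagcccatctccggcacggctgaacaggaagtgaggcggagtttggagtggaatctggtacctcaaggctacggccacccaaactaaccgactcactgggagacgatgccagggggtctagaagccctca
Blnk, chr19:40994172-40994471, minus strand: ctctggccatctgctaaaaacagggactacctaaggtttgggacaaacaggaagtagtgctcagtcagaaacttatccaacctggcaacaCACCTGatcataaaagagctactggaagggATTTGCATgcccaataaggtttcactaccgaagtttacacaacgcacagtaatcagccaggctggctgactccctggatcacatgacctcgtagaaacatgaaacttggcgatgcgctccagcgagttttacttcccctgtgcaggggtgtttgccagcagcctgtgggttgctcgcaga
Ebf1, upstream start, chr11:44617850-44618149, plus strand: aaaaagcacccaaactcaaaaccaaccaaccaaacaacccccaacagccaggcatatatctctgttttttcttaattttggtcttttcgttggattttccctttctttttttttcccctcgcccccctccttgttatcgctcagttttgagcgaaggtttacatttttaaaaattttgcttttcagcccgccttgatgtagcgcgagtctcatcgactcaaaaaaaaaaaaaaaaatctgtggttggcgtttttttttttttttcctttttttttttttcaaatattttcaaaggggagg
Ebf1, downstream start, chr11:44619978-44620277, plus strand: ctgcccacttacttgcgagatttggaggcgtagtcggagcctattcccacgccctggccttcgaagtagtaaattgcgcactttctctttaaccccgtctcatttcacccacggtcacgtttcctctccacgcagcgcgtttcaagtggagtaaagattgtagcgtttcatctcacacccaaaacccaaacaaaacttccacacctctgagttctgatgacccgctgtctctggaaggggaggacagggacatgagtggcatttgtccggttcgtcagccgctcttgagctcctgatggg
The E box stood in the windows of Cd79a, Blnk and Cr2, and in 20.2% of 32851 windows of this length. Blnk alone of the 6 held the octamer, which 1.74% of all windows held. An exact match to CCCNNGGG, the core of the EBF motif, was in none of these 7 windows and in 13.7% of all windows. Only exact matches were sought, so the windows may hold EBF sites that depart from this core.

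Across the 9 genes, Ebf1 fell in IR, and the other 8 did not pass the test. The test was limma on log2(value + 1), with Benjamini-Hochberg adjustment over all 12777 rows, called under an adjusted p of 0.05. That threshold called 1.50% of all genes tested, 0.360% lower and 1.14% higher. Fold changes were negative for 8 of the 9 genes, against 53.2% of all genes, and their median log2 fold change was -0.63, against -0.05 over all genes. In a bulk library, a smaller share of B cells and less RNA per B cell cannot be told apart. The same libraries were low or high for most of the genes. Ctrl replicate 2 was the lowest ctrl library for all 9 genes and ctrl replicate 3 the highest, and IR replicate 2 lay below IR replicate 1 for 7 of 9.

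**Figure D1:**
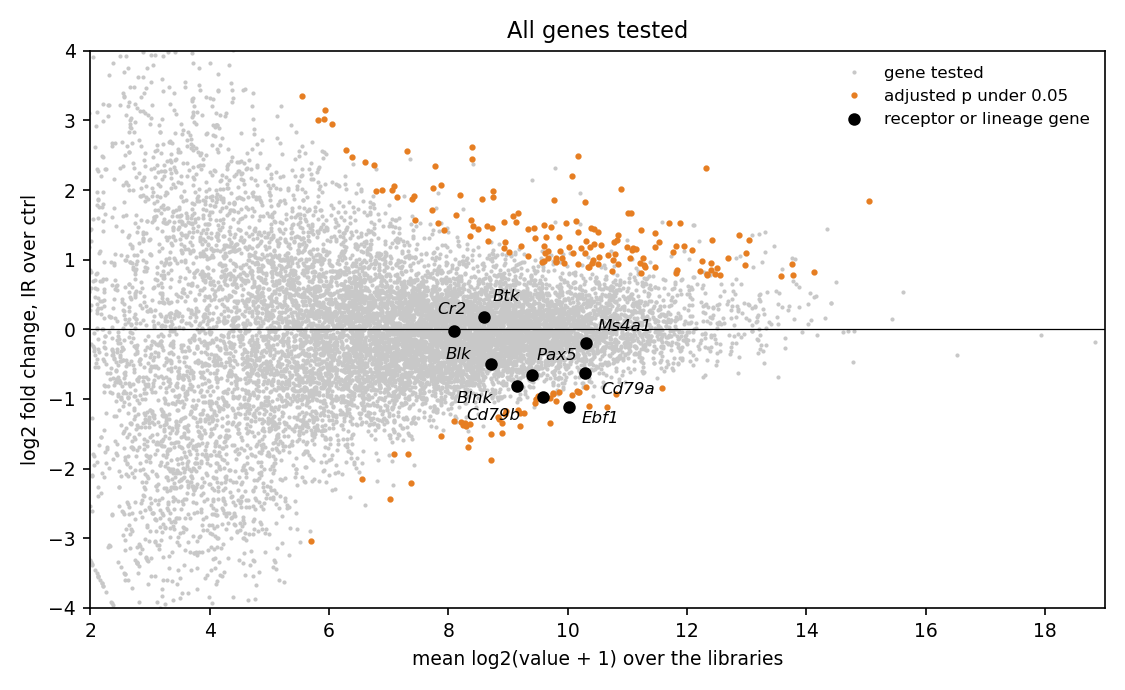
Log2 fold change (IR over ctrl) against mean log2(value + 1) for 12562 of the 12777 genes tested, with 215 outside the axes. Genes called are orange and the 9 receptor and lineage genes black, and of these Ebf1 lies among the genes called lower.

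**Figure D2:**
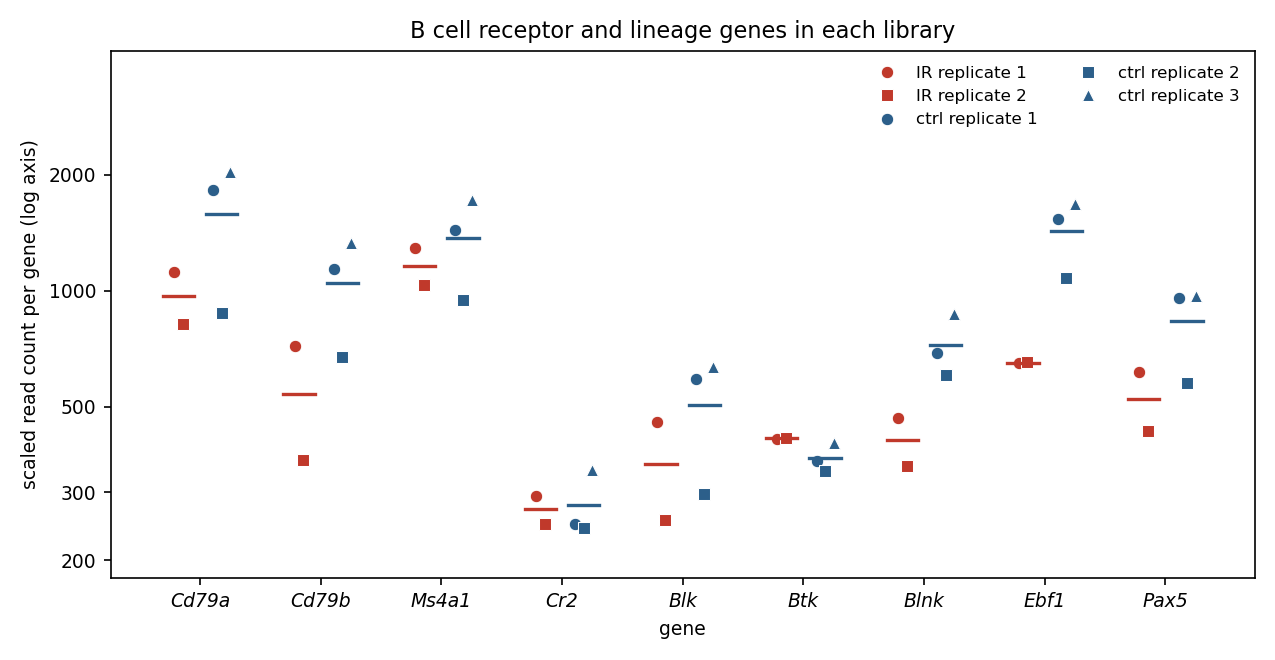
Scaled read count (log axis) of each gene in the 2 IR libraries (left of each pair) and the 3 ctrl libraries (right of each pair), with bars at group means. The IR points of Ebf1 (649.6 and 653.1) lie below all ctrl points, whereas for Cd79a, Cd79b, Ms4a1, Cr2, Blk and Pax5 the groups overlap, with ctrl replicate 2 (blue square) the lowest ctrl point.

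The signalling chains of the receptor had the highest mean levels per length in both groups. In IR, however, Cd79b did not exceed Ms4a1 by more than the summed SDs of the 2 genes. Cd79a, which encodes the Ig-alpha chain (chromosome 7, 24897381 to 24902197, plus strand), had values of 1119.8 and 818.7 in IR libraries and 1827.2, 876.0 and 2040.6 in ctrl libraries. The groups overlapped, since ctrl replicate 2 lay between the IR libraries. The log2 fold change was -0.63 ± 0.32 (SE; adjusted p = 0.370 in limma), with a 95% interval from -1.31 to 0.05. Cd79b, for the Ig-beta chain (chromosome 11, 106311341 to 106314762, minus strand), had 717.9 and 364.8 in IR and 1137.6, 674.2 and 1331.7 in ctrl. IR replicate 1 lay above ctrl replicate 2, and IR replicate 2 below every other library. The log2 fold change of Cd79b was -0.98 ± 0.31 (SE; adjusted p = 0.145 in limma). It was -1.46 (adjusted p = 0.0103) without IR replicate 1 and -0.49 (adjusted p = 0.641) without IR replicate 2, so its size rested on IR replicate 2.

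Ms4a1 and Cr2, genes of B cell surface proteins, had smaller fold changes than Cd79a and Cd79b, a difference that was not tested. Other B cell surface genes ranged more widely, with Cd22 at -0.69 and Cd24a at 0.60, neither of which passed. Ms4a1 encodes CD20, a B cell surface protein (chromosome 19, 11249675 to 11266241, minus strand). Its values were 1291.8 and 1034.7 in IR and 1442.7, 947.3 and 1725.2 in ctrl, with both IR libraries inside the ctrl range. The log2 fold change was -0.20 ± 0.24 (SE; adjusted p = 0.741 in limma; 95% interval -0.70 to 0.29). Cr2 encodes the complement receptors CD21 and CD35, which amplify receptor signals (chromosome 1, 195136811 to 195176716, minus strand). It had 294.4 and 247.9 in IR and 247.6, 242.1 and 343.9 in ctrl, again inside the ctrl range. Its log2 fold change was -0.02 ± 0.34 (SE; adjusted p = 0.983 in limma), with an interval from -0.72 to 0.68 that leaves room for a change in either direction. Cr2 turned positive with median-ratio factors (0.0012), without ctrl replicate 3 (0.14) and without IR replicate 2 (0.10).

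Estimates for the kinases and the adaptor were not all of the same sign, and differences between these genes were not tested. Blk, a Src-family kinase of B cells (chromosome 14, 63372836 to 63417037, minus strand), had 457.1 and 254.7 in IR and 589.9, 296.9 and 633.7 in ctrl. Its groups overlapped, and the log2 fold change was -0.49 ± 0.34 (SE; adjusted p = 0.534 in limma). Without IR replicate 1 it was -0.91 and without IR replicate 2 -0.07, with no pass in either run (adjusted p = 0.172 and 0.965). Btk, the Tec-family kinase that myeloid cells also use (chromosome X, 134542336 to 134583570, minus strand), had 413.2 and 415.2 in IR and 361.7, 340.7 and 402.2 in ctrl. Both IR libraries lay above every ctrl library, as they did for 15.2% of all genes tested, but the log2 fold change was 0.17 ± 0.29 (SE; adjusted p = 0.827 in limma) and only 0.05 after scaling to library totals. Btk was the only one of the 9 genes with a positive fold change. Blnk, the adaptor that joins BTK to the receptor (chromosome 19, 40928927 to 40994535, minus strand), had 468.3 and 351.3 in IR and 690.5, 605.6 and 870.3 in ctrl. Its groups did not overlap. The log2 fold change of Blnk was -0.81 ± 0.27 (SE; adjusted p = 0.133 in limma), and it passed in a single run, without IR replicate 1 (-1.02, adjusted p = 0.0409).

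Ebf1 showed the largest difference of the 9 genes. It encodes the early B cell factor that opens the B lineage programme (chromosome 11, 44617317 to 45008091, plus strand). Ebf1 had 649.6 and 653.1 in IR, against 1539.9, 1081.6 and 1678.5 in ctrl, so both IR libraries lay below all ctrl libraries and close to each other. Both IR libraries lay below all ctrl libraries for 2 of the 9 genes, Ebf1 and Blnk, and for 16.3% of all genes tested, so that count is near the background. The log2 fold change of Ebf1 was -1.11 ± 0.23 (SE; adjusted p = 0.0152 in limma; 95% interval -1.59 to -0.63), a value 53.7% lower in IR. It did not pass without ctrl replicate 1 (-1.05, adjusted p = 0.155) or ctrl replicate 3 (-0.99, adjusted p = 0.127). Without a mean trend in the variance model it did not pass either (adjusted p = 0.475), and limma then called 0 of 12777 genes, with 1245 at an unadjusted p under 0.05.

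Pax5 encodes the factor that commits cells to the B lineage (chromosome 4, 44524757 to 44710487, minus strand). Its values were 615.1 and 432.9 in IR and 960.1, 576.4 and 968.8 in ctrl. IR replicate 1 lay above ctrl replicate 2, so the groups overlapped. The log2 fold change was -0.65 ± 0.27 (SE; adjusted p = 0.252 in limma). Before adjustment, Ebf1, Blnk, Cd79b and Pax5 had limma p under 0.05, all lower in IR (4 of 9, against 7.20% of all genes tested that were lower at that level).

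**Figure D3:**
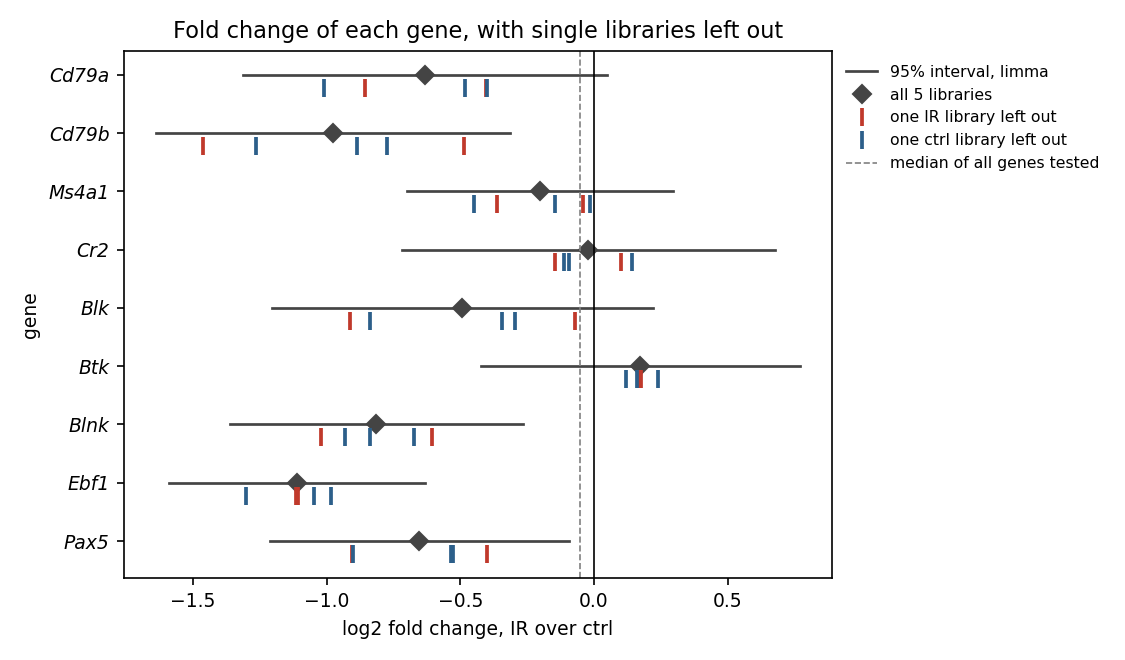
Log2 fold change (IR over ctrl) of each gene with its 95% limma interval (diamonds and lines), and the fold change with 1 IR or 1 ctrl library left out (red and blue ticks). The ticks of Ebf1 run from -1.30 to -0.99 and those of Cd79b from -1.46 to -0.49, while those of Cr2 fall on both sides of 0.

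Levels were compared between genes as scaled counts per kilobase of annotated exon (GENCODE vM21). In IR the order was Cd79a (665 ± 146), Cd79b (378 ± 174.5), Ms4a1 (188 ± 29.4), Blk (132 ± 53.0), Btk (131.5 ± 0.449), Blnk (68.4 ± 13.8), Ebf1 (66.8 ± 0.254), Pax5 (59.2 ± 14.6) and Cr2 (33.4 ± 4.05) per kilobase (SD, n = 2). Ctrl libraries had Cd79a at 1085 ± 426, Cd79b at 732 ± 236, Ms4a1 at 222 ± 63.6, Blk at 188 ± 67.9, Ebf1 at 147 ± 32.0, Blnk at 120.5 ± 22.6, Btk at 117 ± 9.93, Pax5 at 94.3 ± 25.3 and Cr2 at 34.2 ± 7.06 per kilobase (SD, n = 3). Ebf1 lay within the summed SDs of Blnk and of Btk in ctrl. In IR it lay within those of Blnk, and below Btk by more than the summed SDs. In ctrl, Cd79a and Cd79b lay within their summed SDs of each other, as did neighbours from Ms4a1 to Pax5. The steps from Cd79b down to Ms4a1 and from Pax5 down to Cr2 were larger than that. In IR the steps larger than the summed SDs were those from Btk down to Blnk and from Pax5 down to Cr2.

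Dividing each gene by Cd79a within a library removes any factor that all genes of that library share. Ebf1 stood at 0.580 and 0.798 of Cd79a in IR libraries, against 0.843, 1.23 and 0.823 in ctrl libraries, so its ratio was lower in both IR libraries than in any ctrl library. Ms4a1 differed in the other direction, with 1.15 and 1.26 of Cd79a in IR and 0.790, 1.08 and 0.845 in ctrl. For Pax5 the ratios were 0.549 and 0.529 in IR and 0.525, 0.658 and 0.475 in ctrl, a mean difference of -0.02 on the log2 scale. The mean log2 ratio differed by -0.48 for Ebf1 and by 0.43 for Ms4a1. None of the 8 ratios passed an exact permutation test over the libraries (two-sided p = 0.2 for Ebf1 and for Ms4a1, adjusted p = 0.48 over the 8), and with 10 splits that test cannot give a p under 0.1. The ratios were formed after the values had been seen.

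**Figure D4:**
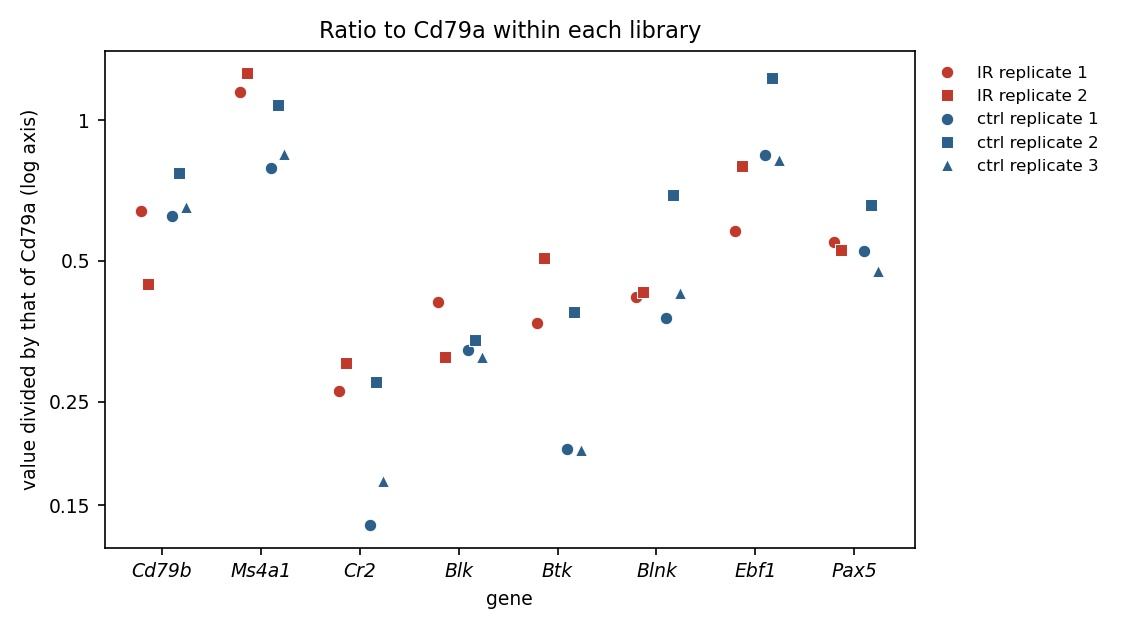
Value of each gene divided by that of Cd79a in the same library (log axis), with IR libraries left of ctrl libraries. Ebf1 ratios are lower in both IR libraries (0.580 and 0.798) than in ctrl (0.823 to 1.23), Ms4a1 ratios are higher in both, and the groups overlap for Cd79b, Cr2, Blk, Btk, Blnk and Pax5.

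Other transcription factors of the B lineage included further genes that fell. Of 15 tested, 2 fell, 1 rose and 12 did not pass, with a median log2 fold change of -0.45. Bach2, a repressor that holds B and T cells in an undifferentiated state, had 956.2 and 723.7 in IR and 1914.3, 1590.4 and 1845.6 in ctrl. Its log2 fold change was -1.09 ± 0.22 (SE; adjusted p = 0.00886 in limma). Mef2c, a factor of B cell proliferation after receptor signalling, had 1242.3 and 821.2 in IR and 2508.4, 1849.8 and 2288.7 in ctrl, a log2 fold change of -1.12 ± 0.22 (SE; adjusted p = 0.00886 in limma). Both lay below every ctrl library in both IR libraries. Both lost the call without any 1 ctrl library (adjusted p from 0.0575 to 0.118 for Bach2 and from 0.0567 to 0.141 for Mef2c in limma). Without a mean trend, where limma called 0 genes, both lost it too (adjusted p = 0.474 for Bach2 and 0.475 for Mef2c). Without IR replicate 2 the log2 fold change was -0.89 for Bach2 and -0.82 for Mef2c. Both genes are also expressed outside the B lineage. Spi1, which encodes PU.1 of B and myeloid cells, rose (log2 fold change 0.81 ± 0.21 SE, adjusted p = 0.0494 in limma), at 3889.4 and 6455.5 in IR and 2639.3 to 3020.2 in ctrl. Spi1 lost the call in 12 of 15 alternatives. Its adjusted p was 0.0504 to 0.0581 in the 3 other scalings and 0.161 to 0.301 without 1 ctrl library, and its log2 fold change was 0.44 (adjusted p = 0.482) without IR replicate 2. Ikzf1, the lymphoid factor Ikaros, had a log2 fold change of -0.18 (adjusted p = 0.714).

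Among co-receptors and other B cell surface proteins, 0 of 16 passed in limma, and 12 had negative fold changes (median -0.39). Cd22, an inhibitory co-receptor, had 979.6 and 788.4 in IR and 1584.7, 1226.8 and 1470.3 in ctrl, and the groups did not overlap. Its log2 fold change was -0.69 ± 0.22 (SE; adjusted p = 0.120 in limma), and it passed after scaling to library totals (adjusted p = 0.0494) and without IR replicate 1 (0.0421). Fcmr, the receptor for IgM, had -0.31 (0.761). Cd24a, which granulocytes and epithelium carry too, had 0.60 (0.287). Of 22 further signalling proteins, 0 passed and the median was 0.00. Syk, Lyn and Ptpn6, which myeloid cells also use, had log2 fold changes of 0.12, 0.27 and 0.35 (adjusted p = 0.818, 0.540 and 0.408 in limma). Among 8 genes of MHC class II loading, shared with other presenting cells, 0 passed and all 8 were negative (median -0.52). Cd74 had -0.48 (0.284) and H2-Ab1 -0.63 (0.140). H2-Ab1 passed after scaling to library totals (0.0456) and with array weights (0.035).

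Genes most like the 9 were sought over the 5 libraries, by the smallest root mean square difference from their median centred log2 profile. Candidates were 7263 genes with a mean of at least 100, leaving out the 9 and any gene with a clone or predicted-model name. The nearest were Pde12 (0.0880), Cept1 (0.0900), Scd1 (0.0980), Ikzf3 (0.105) and Cc2d1b (0.107). Cept1 encodes a transferase of phospholipid synthesis and Scd1 a fatty acid desaturase, and neither is a B cell marker. Ikzf3, which encodes the lymphoid factor Aiolos, was at 2081.7 and 1306.2 in IR and at 3268.2, 2198.8 and 3624.0 in ctrl (log2 fold change -0.85 ± 0.24 SE; adjusted p = 0.0732 in limma), and passed in 4 of 15 alternatives (adjusted p = 0.00819 to 0.0447). Of the 9 genes themselves, Pax5 was nearest to the profile (0.0450) and Btk farthest (0.496).

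Markers of other cells moved in the same libraries. The 12 neutrophil markers summed to 72152 and 138560 in IR, against 29728 to 52525 in ctrl; 5 of the 12 rose and 0 fell. Those of T cells (15 genes) summed to 4248 and 3396 in IR and to 6025 to 7066 in ctrl, with 1 of 15 lower and 14 not passing. All 15 had negative fold changes (53.2% of all genes tested did), with a median of -0.77, against -0.63 for the 9 B cell genes. For 9 of the 15, both IR libraries lay below every ctrl library, as they did for 16.3% of all genes tested. Per library, the median log2 difference from the ctrl mean of the 9 B cell genes was -0.40 and -0.91 in IR replicates 1 and 2, and 0.13, -0.49 and 0.33 in ctrl replicates 1, 2 and 3. The T cell median was -0.63 and -0.995 in IR and 0.14, -0.09 and -0.03 in ctrl, so ctrl replicate 2 was low for the B cell genes (-0.49) and MHC class II genes (-0.47) but close to the other ctrl libraries for T cell genes. That library was low for other lists too, at -0.38 for the co-receptors, -0.26 for the immunoglobulin genes, -0.37 for NK cell markers and -1.38 for erythroid genes, and the erythroid genes were highest in ctrl replicate 3 (1.48). The part of these shifts in the B cell values was not tested.

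Some of the 9 genes are expressed in other cells as well. Ebf1 is active in stromal cells, and 7 of 10 stromal markers had a row. Their summed level was 2.80 and 64.6 in IR and 16.4 to 49.4 in ctrl, and each of the 7 was at 0 in at least 1 library. Ebf1 itself was at 649.6 to 1678.5. Blk and Blnk are expressed in plasmacytoid dendritic cells, whose 8 markers summed to 2712 and 4017 in IR and 3001 to 3844 in ctrl. Btk and Blnk are expressed in macrophages, and 12 monocyte and macrophage markers summed to 19660 and 18429 in IR and 17462 to 18593 in ctrl, with 0 of 12 passing. The share of these other cells in the values of Ebf1, Blk, Blnk and Btk was not tested.

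**Figure D5:**
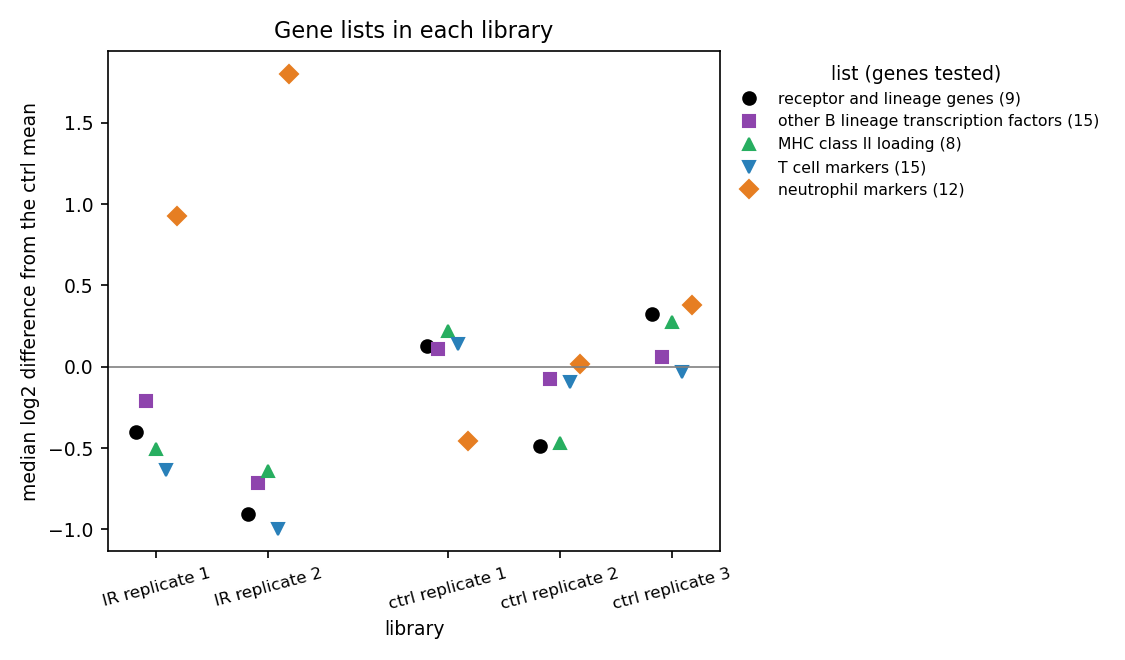
Median log2 difference from the ctrl mean of 5 gene lists in each library, with the number of genes tested in brackets. Neutrophil markers are highest in IR replicate 2 and T cell markers lowest there, while ctrl replicate 2 lies lower for the receptor and lineage genes (-0.49) and the MHC class II genes (-0.47) than for T cell markers (-0.09).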

How the data were processed

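RNA-seq libraries came from CD45-sorted lung cells and a stranded total RNA kit for small inputs, per the labels' protocols. HISAT2, HTSeq and mm10 stand in the submitters' processing notes, with no role given. The deposited table is called a read count, but it holds values to 1 decimal whose medians are alike across libraries, so the unit was taken to be a signal scaled by the authors. How they scaled it is not given in the sources used here. Dividing by the smallest step put 98.0% to 99.9% of values within 0.2 of a whole number, but only 69.8% of low values in ctrl replicate 3 within 0.1, so no count-based test was run and read numbers are approximate (265 to 2795 reads for the 9 genes). Counting error was not derived from the scaled values, and the 95% intervals are those of the limma fit.

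A row was kept where 2 or more libraries reached 10. The tool was limma 3.58.1, run in R 4.3.3 with statmod 1.5.0, on log2(value + 1), using a mean trend and robust estimation without covariates. Fold changes on this scale understate the change of low genes. Tests were two-sided. Libraries were grouped by the treatment label, and replicate numbers follow accession order. The genes and lists were chosen with earlier results of these data known. Every one of the 9 genes is named, up to 4 genes per list (those called with the smallest p, otherwise the highest means), defining B cell genes, and the 5 genes of most similar profile. The rule also selected 1 gene that is left out here. Coordinates and exon lengths are from GENCODE vM21 (GRCm38, the assembly of mm10). GENCODE places antisense genes opposite Ms4a1, Ebf1 and Pax5. The strand setting of the counting is not stated, so their reads cannot be told apart. Older list symbols were matched through RefSeq names. The fit was run on simulated data with independent noise and the spread of the ctrl libraries in both groups. That setting differs from these libraries, so it gives no error rate for them. Scaling, pseudocount, filter, variance model, weights and single libraries were varied.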

Additional observations from a re-analysis of the deposited data

How the results depend on the processing

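No paired analysis was possible because the labels give no replicate numbers shared between groups. Over all genes, 192 were called (76.0% higher in IR). This count was 314 with a pseudocount of 10, 0 without a mean trend (1245 at an unadjusted limma p under 0.05), and between 19 and 1006 with 1 library left out. Scaling to library totals called 259 (55.2% higher) and moved the all-gene median by -0.12 (log2). No filter and no robust estimation each called 129. Of the 9 B cell genes, 1 was called, against 0 without a mean trend, 2 with array weights, and between 0 and 3 with 1 library left out. Ebf1 kept its value of -1.11 but not its call without a mean trend (adjusted p = 0.475), and ran from -1.30 to -0.99 with 1 library left out. Cd79b was called with array weights (-1.15, adjusted p = 0.0298), and ran from -1.46 to -0.49 with 1 library left out, and Blnk from -1.02 to -0.61. With 1 library left out, Cd79a ran from -1.01 to -0.40, Ms4a1 from -0.45 to -0.02, Blk from -0.91 to -0.07 and Pax5 from -0.91 to -0.40, with none of them called. Cr2, at -0.02, was 0.0012 with median-ratio factors and ran from -0.145 to 0.14 with 1 library left out. The cause was not tested. The other genes named, apart from Ptprc, Scgb1a1, Scgb3a2, Epcam, Prdm1 and Txndc5, were put through the same alternatives after the data had been seen. Of 330 such runs, 294 changed neither direction nor call, 9 gained a call (Ikzf3 in 4, Cd22 in 2, H2-Ab1 in 2, Jchain in 1), 22 lost one (Spi1 in 12, Bach2 in 5, Mef2c in 5) and 5 changed sign. Sign changes were those of Syk (-0.0051 after scaling to library totals), and, with 1 library left out, of Syk (-0.12 to 0.35), Ighm (-0.70 to 0.0099) and Igkc (-0.57 to 0.26). Of the 135 runs on the 9 genes, 126 kept direction and side of the threshold. Tests on whole reads were not run because reads could not be recovered in ctrl replicate 3. With no counts, depth sets no limit that can be computed for single genes.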

Other observations

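Immunoglobulin chains, the product of B cells and plasma cells, did not pass in either direction. Of 19 chains and precursor B cell genes, 9 were tested, 0 passed in limma and the median log2 fold change was -0.34. Ighm, the heavy chain of IgM, had 10333 and 6329 in IR and 11382, 7387 and 12853 in ctrl (log2 fold change -0.34 ± 0.24 SE; adjusted p = 0.549 in limma), and its sign changed without IR replicate 2. Ighd, the chain of naive B cells, had 1365.6 and 859.0 in IR and 2497.4, 1197.6 and 2405.6 in ctrl (-0.83 ± 0.31 SE; adjusted p = 0.226 in limma). Igkc, the kappa light chain, had 5999 and 3366 in IR and 5618, 3122 and 7179 in ctrl (-0.16 ± 0.36 SE; adjusted p = 0.880 in limma). Its sign changed without ctrl replicate 3 or IR replicate 2.

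Of 7 plasma cell genes tested, 0 passed in limma, 3 had negative fold changes and 4 positive ones (median 0.19). Prdm1, the factor BLIMP1 of plasma cells, averaged 552.7 in IR and 568.7 in ctrl, and Txndc5, an endoplasmic reticulum foldase, 626.8 in IR and 702.2 in ctrl. Igha, the heavy chain of IgA, had 1036.7 and 537.9 in IR and 265.3, 309.7 and 622.0 in ctrl (log2 fold change 1.01 ± 0.36 SE; adjusted p = 0.188 in limma), and 0.53 without IR replicate 1. Jchain, which joins IgA and IgM into polymers, had 602.0 and 138.7 in IR and 92.9, 151.6 and 179.6 in ctrl (1.08 ± 0.52 SE; adjusted p = 0.339 in limma). It was 0.0251 (adjusted p = 0.984 in limma) without IR replicate 1, and it passed in 1 run, without IR replicate 2 (2.13, adjusted p = 0.0121 in limma), so its value rested on IR replicate 1. IR replicate 1 was the highest library for both genes, and IR replicate 2 lay inside the ctrl range.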
